A study of Mus musculus with 16 samples.

Results

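Txnip and the alpha-arrestins Arrdc1, Arrdc2, Arrdc3 and Arrdc4 were followed across 16 whole-transcript arrays of cultured mouse embryonic fibroblasts, the matrix-forming cells of connective tissue. They are 5 of the 19938 genes measured, each read by 1 probe set that carries no other gene symbol. The 5 genes were chosen by a measured value, the difference between the cell lines in the response of Arrdc3 to MG132. The values of Arrdc3 in the 4 groups, and the difference of the MG132 responses of all 5 genes, are therefore given as a description with no test. There were 2 lines, wild-type cells with a scramble short hairpin RNA (called control below) and cells that stably carry a hairpin targeting Atf5, a stress-regulated bZIP transcription factor (called knockdown below). Each line was kept for 8 h in DMSO as vehicle or in 1 µM MG132, an inhibitor of the proteasome, with 4 plates of 10 cm per group and 1 array per plate. The labels do not say how many clones make up the knockdown line, nor that the plates came from separate cultures, and the p-values here reflect the plate-to-plate spread alone, which may be technical.

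Alpha-arrestins are adaptors built on the arrestin fold. They bind membrane proteins and, through PPxY motifs in their tails, recruit HECT ubiquitin ligases of the NEDD4 family, so that the bound cargo is ubiquitinated and internalised. Txnip, the best studied member, also binds and inhibits thioredoxin and lowers glucose uptake by promoting endocytosis of glucose transporters. Its gene is a classical target of the glucose-sensing transcription factors MondoA and ChREBP, which bind DNA with their partner Mlx at carbohydrate response elements. Arrdc4 is a second target of the same factors. Arrdc1 drives the budding of microvesicles from the plasma membrane with the help of ESCRT proteins, and Arrdc3 is known as an adaptor for beta-adrenergic receptors. Arrdc2 is less well characterised.

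The promoters of Txnip, Arrdc4 and Arrdc3 are shown here from RefSeq (GRCm38.p6). Each is given as the 250 bases before the transcription start, 5′ to 3′ on the strand of the gene. With MG132 Txnip and Arrdc4 rose most of the 5 genes in control cells, and Arrdc3 did not rise there. Arrdc1 and Arrdc2, whose promoters are not shown, also rose there. Capitals mark matches, on either strand, to the motifs searched. These were the E-box CACGTG, the paired element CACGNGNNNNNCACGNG (a form of the carbohydrate response element), CCAAT, the forkhead motif GTAAACA, the cAMP response element TGACGTCA, the element TGATGNAA bound by C/EBP-ATF dimers and the heat shock element GAANNTTCNNGAA. The E-box lies in the paired element when the variable base is T.
Txnip, chr3:96557707-96557956, plus strand: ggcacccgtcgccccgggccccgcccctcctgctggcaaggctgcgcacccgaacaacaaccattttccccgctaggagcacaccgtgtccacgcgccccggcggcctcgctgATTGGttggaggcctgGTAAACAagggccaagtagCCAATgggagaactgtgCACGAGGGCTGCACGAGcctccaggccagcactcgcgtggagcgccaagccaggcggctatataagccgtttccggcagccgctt
Arrdc4, chr7:68749239-68749488, minus strand: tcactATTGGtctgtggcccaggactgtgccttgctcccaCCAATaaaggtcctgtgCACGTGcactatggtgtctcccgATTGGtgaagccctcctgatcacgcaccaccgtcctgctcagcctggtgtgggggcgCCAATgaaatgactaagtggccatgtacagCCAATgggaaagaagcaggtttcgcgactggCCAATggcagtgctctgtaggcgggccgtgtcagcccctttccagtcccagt
Arrdc3, chr13:80883134-80883383, plus strand: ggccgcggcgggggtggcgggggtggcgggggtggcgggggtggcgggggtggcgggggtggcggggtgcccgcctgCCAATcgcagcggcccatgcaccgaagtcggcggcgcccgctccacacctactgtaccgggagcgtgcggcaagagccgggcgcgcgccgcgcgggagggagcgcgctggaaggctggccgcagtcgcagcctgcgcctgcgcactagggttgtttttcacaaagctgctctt

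The Txnip window held 1 paired element starting 85 bases before the start, 1 forkhead motif at 121 bases and 2 CCAAT motifs at 102 and 137 bases. A paired element was found in 15 of 32851 windows of the same length (0.0457%), a forkhead motif in 3.17% and a CCAAT motif in 33.8%. The letters of the paired element were written with the Txnip promoter in view. In the Arrdc4 window there were 1 E-box, present in 6.02% of windows, and 6 CCAAT motifs. The Arrdc3 window shown held 1 CCAAT motif and no other match. RefSeq gives 3 windows for Arrdc3, of which another, overlapping the first, held the same CCAAT motif and the third held no match. Arrdc2 had 3 CCAAT motifs and Arrdc1 no match. A match is only a string of letters in this window, and binding was not measured.

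The medians of the 16 arrays were close (7.71 to 7.82, log2), and precision is limited by how many arrays there are. Atf5, the target of the hairpin, was lower in the knockdown line by 0.22 ± 0.05 (log2, SE) with vehicle and by 0.31 ± 0.05 with MG132 (limma adjusted p = 0.00321 and 0.000148), a partial reduction. The leading gradient among plates of 1 group held 37.1% of that variance, and control vehicle 1 and 4, knockdown vehicle 1 and control MG132 4 lay lowest on it. Fibroblast markers (mean log2 of 10 genes) lay between 9.94 and 10.14 with vehicle and between 9.69 and 9.96 with MG132. Markers of smooth muscle (4 genes) ranged from 10.05 to 10.25 in the control line and from 9.50 to 9.66 in the knockdown line, and neuronal markers (3 genes) from 7.92 to 8.29 with vehicle and from 8.42 to 8.51 with MG132. Macrophage, endothelial, epithelial, skeletal muscle and adipocyte lists lay between 6.44 and 7.58. The part of these shifts in the results below was not tested. Values are log2 intensities, which compare a gene between groups but not one gene with another. In RNA from a whole plate, a change in every cell and a change in the share of expressing cells cannot be told apart.

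Txnip rose with MG132 in control cells to its highest level of the 4 groups. The control plates read 9.70, 9.74, 9.75 and 9.63 with vehicle and 10.55, 10.61, 10.58 and 10.46 with MG132. Every treated control plate thus lay above every untreated one. The rise was 1.80-fold (log2 difference 0.85 ± 0.06, limma adjusted p = 5.05e-09, exact two-sided permutation p = 0.0286, which is the lowest possible with 4 arrays in each group), larger in size than the change of 98.9% of genes. In knockdown cells Txnip read 10.03, 10.08, 10.06 and 10.26 with vehicle and 9.91, 9.99, 10.15 and 9.92 with MG132, and these groups overlapped. The log2 difference of -0.12 ± 0.06 was not past the threshold (limma adjusted p = 0.131, exact permutation p = 0.2). Without knockdown MG132 plate 3, the highest of its group, it was -0.17 and passed (limma adjusted p = 0.0228), and with each array centred on its median it was -0.18 (limma adjusted p = 0.0465). Between the lines, Txnip was thus higher in knockdown cells with vehicle (0.40 ± 0.06, limma adjusted p = 2.15e-05) and lower in knockdown cells with MG132 (-0.56 ± 0.06, limma adjusted p = 5.58e-07), without overlap in either treatment. In order of level, control vehicle was lowest, followed by knockdown MG132, knockdown vehicle and control MG132, and only the middle pair overlapped.

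Arrdc4, the other glucose-responsive member, took the same extremes. In control cells it read 7.89, 7.79, 7.82 and 7.72 with vehicle and 8.67, 8.50, 8.56 and 8.50 with MG132. That is a rise of 1.69-fold (log2 difference 0.75 ± 0.05, limma adjusted p = 4.82e-09, exact permutation p = 0.0286), larger in size than that of 98.4% of genes. Knockdown cells read 7.98, 8.08, 8.05 and 8.10 with vehicle and 8.35, 8.32, 8.44 and 8.22 with MG132. Arrdc4 rose there too, by 0.28 ± 0.05 (limma adjusted p = 0.000275), again without overlap. With vehicle it was higher in knockdown than in control cells (0.25 ± 0.05, limma adjusted p = 0.000815), and with MG132 it was lower (-0.23 ± 0.05, limma adjusted p = 0.00195). None of the neighbouring groups overlapped in the order control vehicle, knockdown vehicle, knockdown MG132, control MG132. The smallest gap was 0.06, between the highest knockdown and the lowest control plate with MG132.

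**Figure D1:**
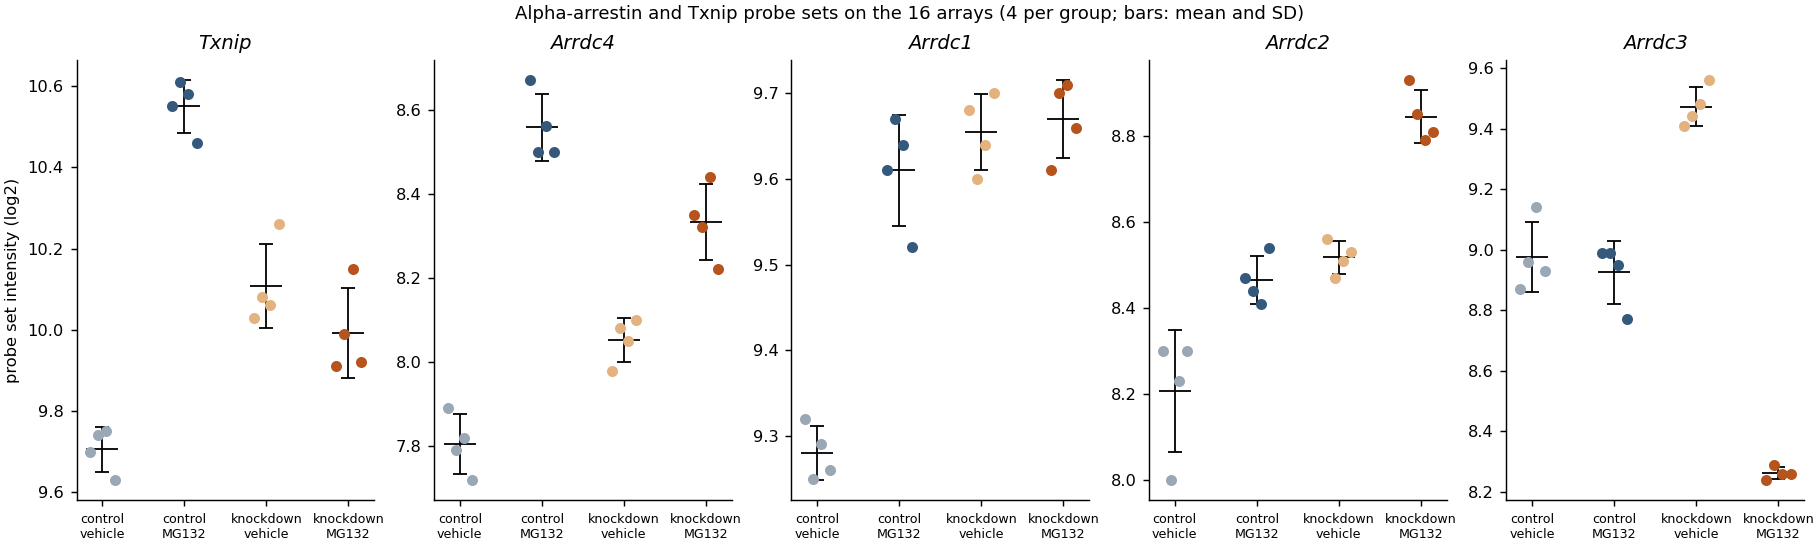
Log2 probe set intensity (vertical axis, own scale for each gene) of the 5 genes in the 4 groups, with 1 point per array and bars for the mean and SD of 4 arrays. Txnip and Arrdc4 are lowest in control cells with vehicle and highest in control cells with MG132, while Arrdc3 is highest in knockdown cells with vehicle (9.41 to 9.56) and lowest in knockdown cells with MG132 (8.24 to 8.29).

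Arrdc1, the microvesicle adaptor, stood apart in a single group. Control cells with vehicle read 9.32, 9.25, 9.29 and 9.26, below all other plates. With MG132 the control plates read 9.61, 9.67, 9.64 and 9.52, a rise of 1.26-fold (log2 difference 0.33 ± 0.04, limma adjusted p = 2.24e-06). The knockdown plates read 9.68, 9.60, 9.64 and 9.70 with vehicle and 9.61, 9.70, 9.71 and 9.66 with MG132. They overlapped, and the difference of 0.02 ± 0.04 did not pass (limma adjusted p = 0.778). Arrdc1 was higher in knockdown than in control cells with vehicle (0.38 ± 0.04, limma adjusted p = 3.51e-07), whereas the difference of 0.06 ± 0.04 with MG132 did not pass (limma adjusted p = 0.26). After a second quantile normalization both of these small differences passed, at 0.10 for MG132 in knockdown cells (limma adjusted p = 0.0225) and 0.09 between the lines with MG132 (limma adjusted p = 0.0437).

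Arrdc2 was raised by MG132 in both lines and was higher in the knockdown line in both treatments. Control cells read 8.30, 8.00, 8.23 and 8.30 with vehicle and 8.47, 8.44, 8.41 and 8.54 with MG132. The increase was 1.20-fold (0.26 ± 0.06, limma adjusted p = 0.00159). Knockdown cells read 8.56, 8.47, 8.51 and 8.53 with vehicle and 8.93, 8.85, 8.79 and 8.81 with MG132, an increase of 1.26-fold (0.33 ± 0.06, limma adjusted p = 0.000155). The line differences were 0.31 ± 0.06 with vehicle and 0.38 ± 0.06 with MG132 (limma adjusted p = 0.000251 and 3.42e-05). The arrays of the groups compared did not overlap in any of these 4 comparisons. Only control MG132 and knockdown vehicle, neighbours in the order of levels, overlapped.

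Arrdc3 varied most of the 5 genes, with a span of 1.21 between its highest and lowest group means against 0.39 to 0.85 for the others. In control cells it read 8.87, 8.96, 9.14 and 8.93 with vehicle and 8.99, 8.99, 8.95 and 8.77 with MG132. These groups overlapped, with a difference of -0.05 ± 0.06. Knockdown cells read 9.41, 9.44, 9.48 and 9.56 with vehicle, above all control plates, and 8.24, 8.29, 8.26 and 8.26 with MG132, below all control plates. The MG132 difference in the knockdown line was -1.21 ± 0.06, to a level 2.31-fold lower. Knockdown minus control was 0.50 ± 0.06 with vehicle and -0.66 ± 0.06 with MG132. These values chose the genes and are given with no test.

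The difference of the MG132 responses, knockdown minus control, was -1.16 ± 0.08 for Arrdc3, -0.96 ± 0.08 for Txnip, -0.47 ± 0.07 for Arrdc4, -0.32 ± 0.05 for Arrdc1 and 0.07 ± 0.08 for Arrdc2 (log2, SE). For Arrdc4 the negative value came with a smaller rise in knockdown than in control cells. For Txnip and Arrdc1 it came with a rise in control cells and a difference in knockdown cells of -0.12 and 0.02, neither past the threshold. For Arrdc3 it came with a lower level in knockdown cells under MG132 and overlapping control groups. Of all genes 14.6% passed in this contrast, and nothing is read from it here because it chose the genes.

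**Figure D2:**
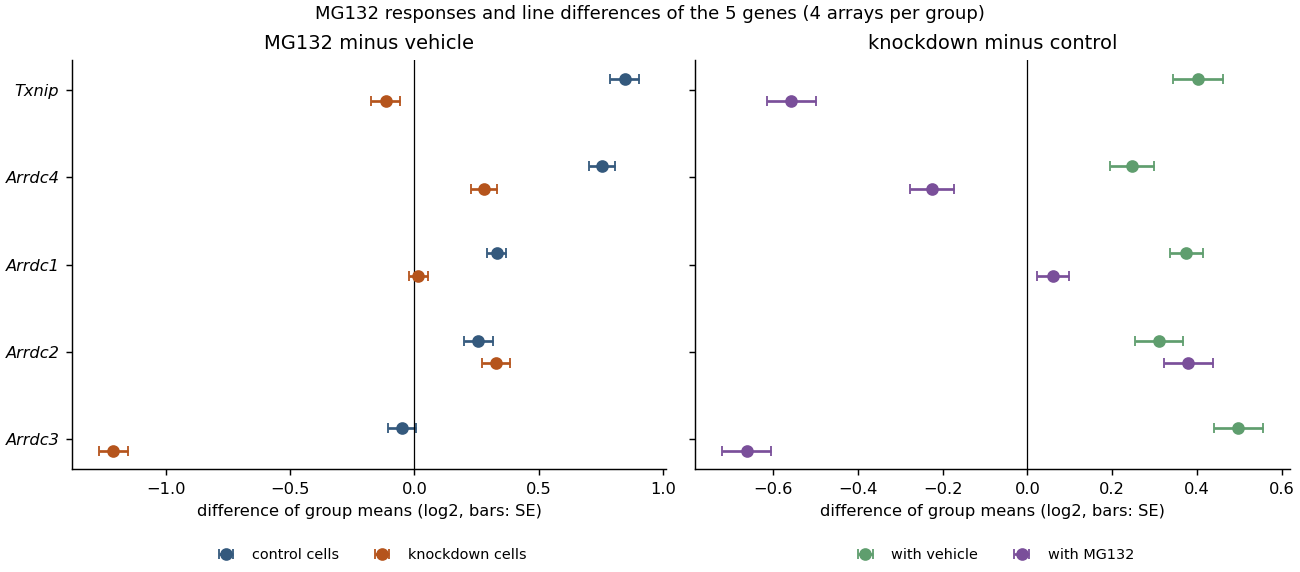
Log2 difference of group means (horizontal axis, bars are the limma SE, 4 arrays per group) for MG132 minus vehicle in each line on the left and knockdown minus control in each treatment on the right. Txnip, Arrdc4 and Arrdc3 change the sign of their line difference between vehicle and MG132 (0.40 to -0.56 for Txnip), while Arrdc2 keeps its sign (0.31 and 0.38).

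Counted over the 4 genes that could be tested in single comparisons (Txnip, Arrdc1, Arrdc2 and Arrdc4), 4 of 4 rose with MG132 in control cells, where 35.8% of all genes passed (16.8% higher). Their arrays did not overlap, which held for 32.9% of all genes. In knockdown cells 2 of 4 rose, Arrdc2 and Arrdc4, against 40.7% passing of all genes (16.4% higher) and 38.5% without overlap. With vehicle 4 of 4 were higher in the knockdown line, against 39.4% of all genes passing (21.5% higher) and 38.7% without overlap. With MG132 1 was higher (Arrdc2) and 2 were lower (Txnip and Arrdc4), against 38.1% passing (17.7% higher and 20.3% lower) and 34.7% without overlap. The MG132 comparisons and the line comparisons share arrays, so these counts are not independent.

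The averages over both lines or both treatments are orthogonal to the contrast that chose the genes in this balanced design, and all 5 genes were tested in them. The average MG132 response was positive for Arrdc4 (0.52 ± 0.04, limma adjusted p = 2.88e-09), Txnip (0.37 ± 0.04, limma adjusted p = 9.52e-07), Arrdc2 (0.29 ± 0.04, limma adjusted p = 9.73e-06) and Arrdc1 (0.17 ± 0.03, limma adjusted p = 3.98e-05). It was negative for Arrdc3 (-0.63 ± 0.04, limma adjusted p = 8.82e-10). All 5 thus passed, 4 higher and 1 lower, where 47.1% of all genes did (22.3% higher and 24.8% lower). These averages do not describe the single lines and treatments, whose values are given above. The average line difference was positive for Arrdc2 (0.35 ± 0.04, limma adjusted p = 1.26e-06) and Arrdc1 (0.22 ± 0.03, limma adjusted p = 2.61e-06), so that 2 of 5 passed, against 45.3% of all genes (22.7% higher). Txnip (-0.08 ± 0.04, limma adjusted p = 0.151), Arrdc3 (-0.08 ± 0.04, limma adjusted p = 0.118) and Arrdc4 (0.01 ± 0.04, limma adjusted p = 0.856) did not. Txnip passed at -0.10 without knockdown vehicle plate 4 (limma adjusted p = 0.0355) or knockdown MG132 plate 3 (limma adjusted p = 0.0324). For Arrdc3 the difference was -0.11 without control MG132 plate 4 and -0.14 without the 4 arrays lowest on the gradient, both with no test, since unequal groups end the orthogonality.

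The genes whose levels ran most like those of Arrdc3 and Txnip were taken by Pearson r over the 16 arrays among 4501 genes with an SD of at least 0.2. A filter on names had left out gene models, clones and small RNAs. It also left out every symbol starting with Rn, ring finger genes among them, so closer genes may exist outside the 4501. These r values describe 4 groups of arrays and carry no test. For Arrdc3 they were the centrosomal protein gene Cep72 (r = 0.947), the F-box gene Fbxl20 (0.937), Ipp (0.934), the zinc finger gene Zfp39 (0.931) and the homeobox gene Hoxa7 (0.929). Cep72 averaged 8.35 ± 0.06 (SD, n = 4) in control cells with vehicle, 8.05 ± 0.14 with MG132, 8.68 ± 0.10 in knockdown cells with vehicle and 7.76 ± 0.03 with MG132. Its control groups were further apart than those of Arrdc3. For Txnip the closest were Anpep, an aminopeptidase of the cell surface (r = 0.928), Hey1, a transcriptional repressor of the Notch pathway (0.895), Hsd17b11, a hydroxysteroid dehydrogenase (0.878), Mfsd11 (0.86) and Arrdc4 (0.855). Arrdc4, itself an alpha-arrestin, was thus the fifth closest to Txnip of the 4501 genes left by these filters. Mfsd11 averaged 10.18 ± 0.07 in control cells with vehicle, 11.08 ± 0.10 with MG132, 10.24 ± 0.06 in knockdown cells with vehicle and 10.53 ± 0.09 with MG132 (SD, n = 4 each).

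**Figure D3:**
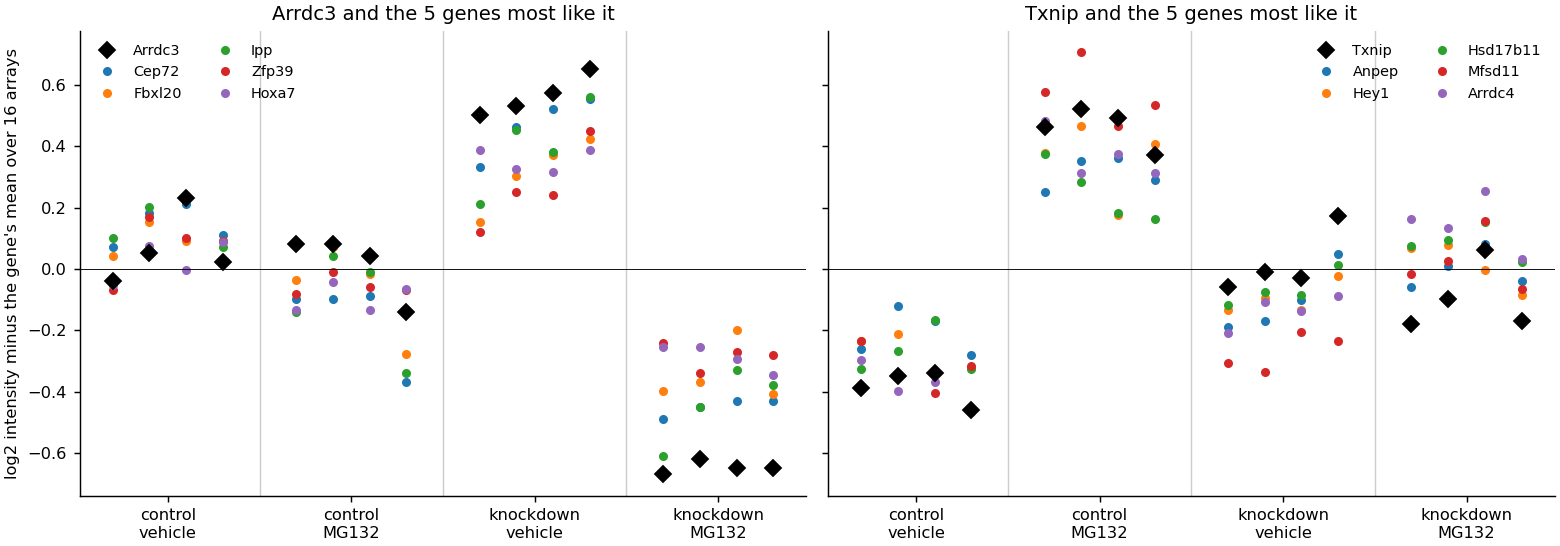
Log2 intensity minus the mean of the gene over 16 arrays (vertical axis), with 1 position per array in the 4 groups. Black diamonds are Arrdc3 and Txnip. Coloured points are the 5 genes with the highest Pearson r to each among the genes compared. The Arrdc3 set is highest in knockdown cells with vehicle and lowest in knockdown cells with MG132, and the Txnip set, Arrdc4 included (r = 0.855), is highest in control cells with MG132.

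Other genes of the alpha-arrestin system were described in 8 lists, whose 75 measured genes were read in both averages. With MG132 51 of them passed (25 higher and 26 lower, 68% against 47.1% of all genes), and between the lines 49 passed (32 higher and 17 lower, 65.3% against 45.3%). The shares of all genes are not matched for signal level, and the lists were chosen with earlier results of these data known. The higher shares are therefore not read as a result. In the difference of the MG132 responses 10 of the 75 passed (13.3% against 14.6% of all genes). They were Wwp2, Srxn1, Slc2a1, Hk2, Slc16a3, Arrb1, Stam, Klhl24, Irs2 and Bcl6. For such genes an average does not describe the single lines and treatments. Of the transcription factors that drive Txnip, Mlxip (MondoA) was lower with MG132 (-0.26 ± 0.02, limma adjusted p = 6.53e-08), as was the partner Mlx (-0.12 ± 0.03, limma adjusted p = 0.00173). Mlxipl (ChREBP) had a difference of 0.08 ± 0.04 and did not pass (limma adjusted p = 0.155). Mlx was higher in the knockdown line (0.27 ± 0.03, limma adjusted p = 2.11e-07), where Mlxip (0.03 ± 0.02) and Mlxipl (-0.01 ± 0.04, of positive sign after rescaling) did not pass. The median of the 3 was -0.12 with MG132, against 0.03 for all genes.

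Among the NEDD4-family ligases and their adaptors, 4 rose and 3 fell of 11 with MG132 (median 0.08, all genes 0.03), and 3 were higher and 5 lower in the knockdown line (median -0.07, all genes -0.01). Nedd4l rose with MG132 (0.50 ± 0.03) and was higher in knockdown cells (0.45 ± 0.03). Smurf1 rose (0.38 ± 0.02) and Wwp1 fell (-0.23 ± 0.03) with MG132, while Wwp2 was higher (0.26 ± 0.02) and Smurf2 lower (-0.23 ± 0.03) in knockdown cells. All of these passed (limma adjusted p between 1.55e-10 and 4.05e-06). The line difference of Wwp2 was 0.35 ± 0.03 with vehicle and 0.16 ± 0.03 with MG132. Of 7 genes of ESCRT proteins and their associates 4 rose and 1 fell with MG132 (median 0.09). Stam (0.54 ± 0.03), Hgs (0.53 ± 0.03) and the ATPase gene Vps4b (0.21 ± 0.03) were among those that rose. Tsg101 (0.04 ± 0.02) and Pdcd6ip (-0.02 ± 0.02) did not pass. In the knockdown line 3 were higher, Vps4a (0.26 ± 0.03) and Tsg101 (0.18 ± 0.02) among them, and 2 lower, with Stam at -0.23 ± 0.03 (median 0.06). The line difference of Stam was -0.34 ± 0.04 with vehicle. With MG132 it was -0.115 ± 0.04 and did not pass (limma adjusted p = 0.0515).

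The thioredoxin system, of which Txnip binds thioredoxin, had 2 genes higher and 5 lower of 11 with MG132 (median -0.05, all genes 0.03). Txn1, named here because it encodes thioredoxin, did not pass with MG132 (-0.001 ± 0.03, limma adjusted p = 0.971). Nor did it between the lines (-0.02 ± 0.03, limma adjusted p = 0.539). Srxn1, which repairs oxidised peroxiredoxins, rose 2.82-fold (log2 1.49 ± 0.03) and the thioredoxin reductase gene Txnrd1 1.47-fold (0.56 ± 0.02), whereas the glutaredoxin gene Glrx fell by 0.89 ± 0.04. The rise of Srxn1 was 3.28-fold in control cells and 2.42-fold in knockdown cells. Between the lines 5 were higher and 2 lower (median 0.04), all by little in this average, such as Prdx2 (0.16 ± 0.04), Txn2 (0.14 ± 0.02) and Txnrd2 (-0.15 ± 0.03). The line difference of Srxn1 turned sign, at 0.32 ± 0.04 with vehicle (limma adjusted p = 2.25e-06) and -0.12 ± 0.04 with MG132 (limma adjusted p = 0.0194). Srxn1 was the only 1 of the 11 to pass in the difference of the responses. Of the other arrestin-fold genes 3 rose and 1 fell of 8 with MG132 (median 0.07), with Vps26a at 0.28 ± 0.03, the beta-arrestin gene Arrb2 at 0.24 ± 0.03 and Vps26b at -0.08 ± 0.02. Arrb1, the other beta-arrestin gene, was 3.36-fold higher in the knockdown line (log2 1.75 ± 0.04, limma adjusted p = 1.81e-16), the only 1 of the 8 to pass there (median 0.03). For Arrb1 the line difference was 1.92 ± 0.05 with vehicle and 1.575 ± 0.05 with MG132. Arrdc5, an alpha-arrestin outside the 5 genes, had a line difference of 0.04 ± 0.04 (limma adjusted p = 0.448).

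Of 17 measured genes of glucose uptake and glycolysis, 5 rose and 8 fell with MG132 (median 0.00, all genes 0.03). The phosphofructokinase gene Pfkl fell (-0.34 ± 0.03) and Ldha, the lactate dehydrogenase, fell (-0.19 ± 0.02), while the lactate transporter gene Slc16a1 rose (0.29 ± 0.03). In the knockdown line 8 were higher and 3 lower (median 0.04), with Pfkm 1.82-fold higher (0.86 ± 0.03), Pfkfb3 1.48-fold higher (0.57 ± 0.04) and the lactate exporter gene Slc16a3 lower (-0.94 ± 0.06). For Slc16a3 the line difference was -1.295 ± 0.08 with vehicle and -0.58 ± 0.08 with MG132. Slc2a1, which encodes the transporter GLUT1 that Txnip binds, and Hk2, a hexokinase, were singled out after their values were seen. Slc2a1 averaged 12.66 in control cells with vehicle and 12.26 with MG132 (-0.40 ± 0.05, limma adjusted p = 2.08e-06), and 12.87 and 12.91 in knockdown cells (0.04 ± 0.05, limma adjusted p = 0.537). Hk2 fell with MG132 in control cells (-0.52 ± 0.04, limma adjusted p = 9.03e-09) and rose in knockdown cells (0.13 ± 0.04, limma adjusted p = 0.00995).

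Another list held genes known to respond to FoxO factors or glucocorticoids, as Txnip also can. It also held the FoxO factor genes Foxo1, Foxo3 and Foxo4 and the glucocorticoid receptor gene Nr3c1. Of its 16 genes 7 rose and 6 fell with MG132 (median -0.02, all genes 0.03). Klhl24 rose by 0.99 ± 0.04, the glucocorticoid-induced Tsc22d3 by 0.93 ± 0.04 and the transcription factor gene Klf9 by 0.92 ± 0.02 (limma adjusted p between 1.52e-14 and 3.58e-12). The rise of Klhl24 was 1.11 ± 0.06 in control cells and 0.86 ± 0.06 in knockdown cells. In the knockdown line 10 were higher and 5 lower (median 0.15, all genes -0.01). Klf9 (0.65 ± 0.02) and Foxo1 (0.45 ± 0.02) were higher there, and Ccng2, a cyclin gene of resting cells, was 2.13-fold lower (-1.09 ± 0.06). Of the reported cargo receptors Insr and Itgb4, neither passed with MG132 (-0.07 ± 0.04 and 0.08 ± 0.04, limma adjusted p = 0.145 and 0.148). Insr, the insulin receptor gene, was higher in the knockdown line (0.15 ± 0.04, limma adjusted p = 0.00227).

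**Figure D4:**
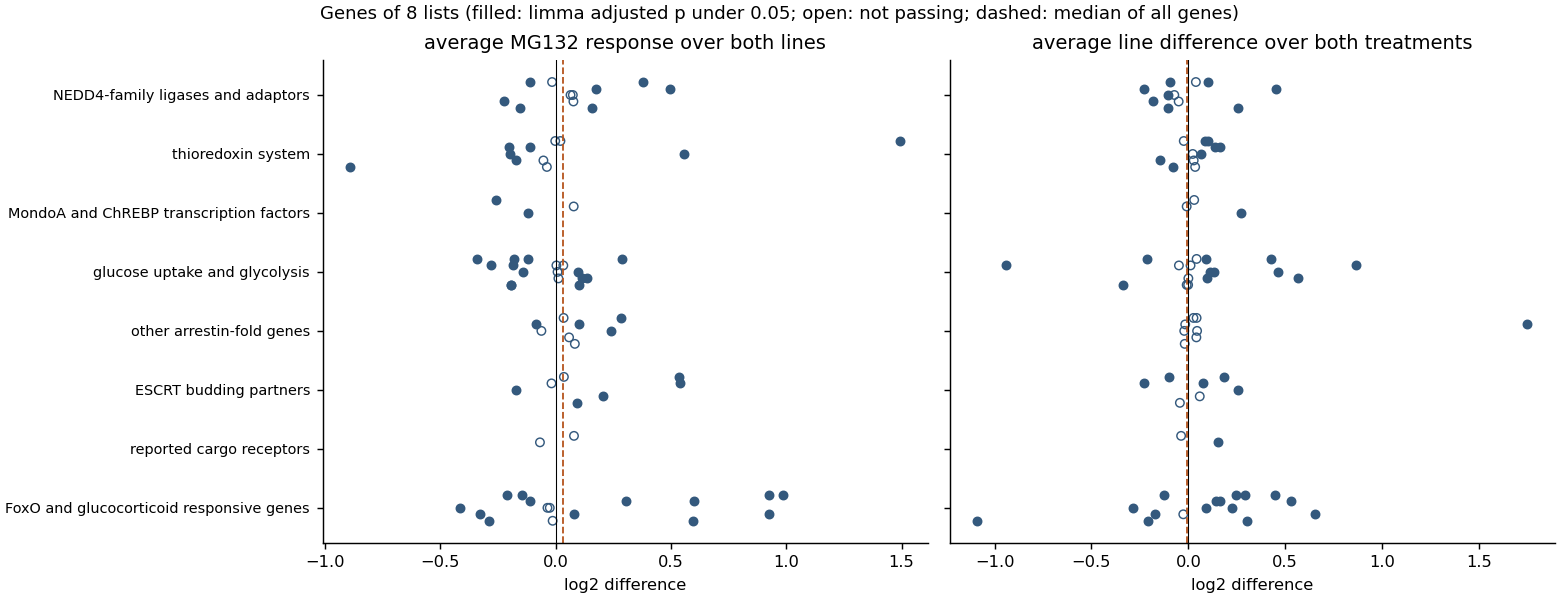
Average MG132 response (left) and average line difference (right) of the genes in 8 lists, on the log2 scale (horizontal axis), 1 point per gene, filled where limma passed at an adjusted p of 0.05, with the median of all genes as a dashed line (0.03 and -0.01). Srxn1 lies farthest right with MG132 (1.49) and Arrb1 between the lines (1.75).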

How the data were processed

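The deposited log2 probe set intensities were used as given. RMA and Partek are named for them in the submitters' processing notes, with versions, settings and background correction not given in the sources used here. Of 35556 probe sets, 21789 carried 1 gene symbol in the platform annotation, and 21698 of these matched RefSeq by gene ID. Where a gene had more than 1 probe set (999 genes), that of highest mean over all arrays was kept, leaving 19938 genes. limma 3.58.1 in R 4.3.3 fitted a mean for each of the 4 groups to all 16 arrays (two-sided tests from lmFit and eBayes; residual degrees of freedom 12, prior 4.12; no filter or block), tested on simulated data. P-values were adjusted by Benjamini-Hochberg across the whole gene table and called at 0.05. Errors of differences are limma standard errors. Genes, lists and tests were chosen with earlier results of these data known. Named list genes have up to 3 smallest p per list in each average contrast. Alternatives were scaling, filter, probe set rule, groups in the fit, prior, array weights, a replicate block, omission of each array in turn and, chosen after seeing the data, omission of 4 arrays. Promoters came from the RefSeq table of GRCm38.p6. Figures were drawn in Python 3.11.15 (matplotlib 3.10.9).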

Additional observations from a re-analysis of the deposited data

Results flagged for a closer look

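In Txnip, Arrdc3 and Arrdc4 the arrays of the knockdown line lay wholly above those of the control line with vehicle and wholly below them with MG132. The line difference with MG132 minus that with vehicle was -0.96 for Txnip, -1.16 for Arrdc3 and -0.47 for Arrdc4 on the log2 scale. These differences were not tested, since this contrast chose the genes. For Arrdc3 the crossing is part of the value that chose them. Over all genes the lines did not overlap, in either direction, in 38.7% with vehicle and in 34.7% with MG132. The share of all genes that cross in this way was not counted. No array of the 5 genes or Atf5 stood far from its group by Dixon's criterion for 4 arrays (24 groups checked).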

How the results depend on the processing

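All calls of the 5 genes that passed did so, with the same sign, under every alternative run, the replicate block among them, which changed no call; for Arrdc3 the test counts in balanced alternatives. The labels do not say what the replicate numbers mean, and pairs of arrays with the same number correlated in their deviations from -0.45 to 0.428, not every pair above 0.1, so no pairing was used. With the replicate block the average MG132 response of Txnip stayed at 0.37 (limma adjusted p = 4.3e-06). Differences that did not pass crossed the threshold in some alternatives. After a second quantile normalization these were Arrdc1 in knockdown cells with MG132 (0.10), Arrdc1 between the lines with MG132 (0.089) and the average line difference of Arrdc3 (-0.11), and the difference of the responses of Arrdc1 moved to -0.23. With centred medians Txnip passed in knockdown cells (-0.18). With array weights the average line difference of Arrdc3 was -0.11, and without the 4 arrays low on the gradient it was -0.14, with no test, since unequal weights or groups end its orthogonality to the contrast that chose the genes. Leaving out single arrays gave -0.17 to -0.064 for the MG132 response of Txnip in knockdown cells, -0.10 to -0.064 for the average line difference of Txnip and -0.11 to -0.055 for that of Arrdc3. Values near 0 turned sign or moved when single arrays were left out. The MG132 response of Arrdc3 in control cells then ran from -0.085 to 0.0050 and that of Arrdc1 in knockdown cells from -0.0033 to 0.035. The line difference of Arrdc1 with MG132 ran from 0.030 to 0.080. The difference of the responses of Arrdc2 ran from 0.039 to 0.14 and the average line difference of Arrdc4 from -0.0067 to 0.030. Over all alternatives some of these ranges were wider. They were -0.10 to 0.0050 for Arrdc3 in control cells, -0.045 to 0.10 for Arrdc1 in knockdown cells and 0.030 to 0.089 for Arrdc1 between the lines with MG132. For the difference of the responses of Arrdc2 the range was 0.017 to 0.14. The cause was not tested. Changes of dim probe sets can be compressed on arrays, so folds may be understated.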
